A study of Mus musculus with 6 samples.

Results

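The genes described here are 9 known targets of the tumour suppressor p53 that have a row in the deposited expression table: Cdkn1a, Mdm2, Ccng1, Trp53inp1, Ei24, Bax, Zmat3, Phlda3 and Sesn1, 9 of 10189 genes in all. They were named by symbol, and all 9 named symbols had a row. The 9 genes and all other gene lists below were chosen with earlier results of these data known. Counts set beside the share over all genes are therefore descriptions only. The miR-34a KO samples came from C57BL/6 mice with a global homozygous deletion of the microRNA gene Mir34a. The others came from wild-type mice of the same strain. The labels give the model name Mir34atm1.2 Mrl for both genotypes. All mice were 5 weeks old, and each genotype had 3 samples of untreated primary chondrocytes, the cells of cartilage, which had been freed from pooled articular cartilage of knees and hips and grown in serum before total RNA was sequenced. Whether samples of 1 genotype stem from separate mice is not stated in the labels, so the p-values below describe sample-to-sample spread that may be technical.

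p53 is a transcription factor that is kept low by the ubiquitin ligase Mdm2 and accumulates after DNA damage or other stress. It then switches on genes that stop the cell cycle, promote cell death, repair DNA or alter metabolism, and it switches on Mdm2 itself, which closes a negative feedback loop. Mir34a is also a direct p53 target, and miR-34a is known to reinforce cell cycle arrest by repressing cyclin and kinase genes and the deacetylase gene Sirt1. The Mir34a gene (chromosome 4, 150068454 to 150068555, mm10) is absent from the table, which leaves the genotype labels without a check on the deleted gene.

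p53 binds a 10-base motif, usually as a pair that makes a 20-base element. A search of RefSeq promoter windows of 300 bases (250 before to 50 after a transcription start, GRCm38.p6) covered 7 of the 9 genes, all but Trp53inp1 and Zmat3, in 9 windows. The p53 decamer consensus reads the same on both strands, so that a search of the printed strand covers both. An exact decamer was present in 6 of the 9 windows, against 8.36% of 32851 mouse windows of the same length. A 20-base element, with both 4-base cores intact and at most 2 other mismatches, was present in 1 of the 9 windows and in 0.158% of all windows. The element and the decamers are shown because they match the motif that p53 is known to bind. Whether p53 acts on these genes through them was not tested, and sites outside the windows were not searched. Capitals mark the match, and each line runs 5′ to 3′ on the strand of the gene.
Cdkn1a, chr17:29090908-29090967, plus strand, 20-base element: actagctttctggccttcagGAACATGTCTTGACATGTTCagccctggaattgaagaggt
Ccng1, chr11:40755442-40755491, minus strand, decamer: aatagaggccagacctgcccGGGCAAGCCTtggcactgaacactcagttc
Mdm2, chr10:117710915-117710964, minus strand, decamer: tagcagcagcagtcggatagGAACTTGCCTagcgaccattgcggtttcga
Ei24, chr9:36797315-36797364, minus strand, decamer: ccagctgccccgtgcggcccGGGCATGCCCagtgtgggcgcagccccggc

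The Cdkn1a element has 1 mismatch to the consensus. It starts 51 bases before the upstream start of the gene and 2841 bases before its other annotated start. Bax and Sesn1 also held a decamer, 201 and 173 bases before a start, and a further decamer of Cdkn1a lies 73 bases before its upstream start. The window of Phlda3, the downstream window of Cdkn1a and the upstream window of Sesn1 held none. A match is a description of letters and does not show binding in these cells.

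**Figure D1:**
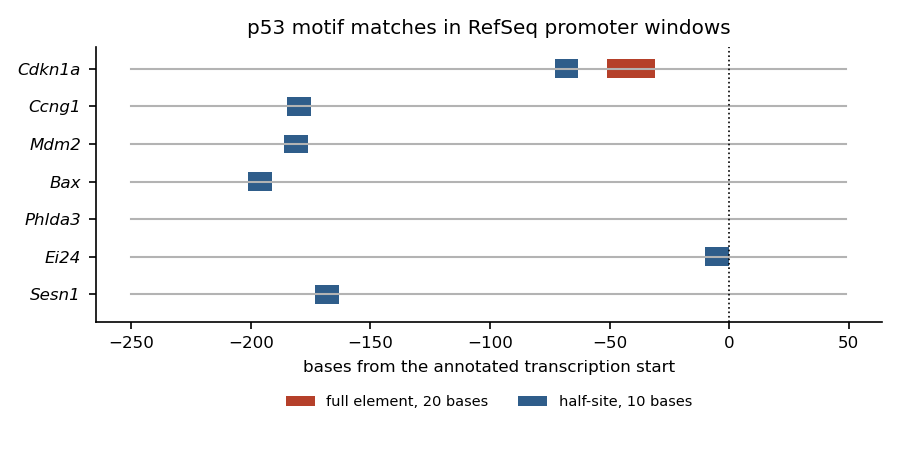
Positions of p53 motif matches in the promoter windows of 7 genes, in bases from the annotated start (dotted line). Cdkn1a holds the single 20-base element, 51 bases before its upstream start, beside 1 separate decamer, and Phlda3 holds no match. Cdkn1a and Sesn1 each have another window with no match (downstream for Cdkn1a, upstream for Sesn1), which is not drawn.

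The deposited values are TMM-normalized CPM, reads per unit of library size scaled so that libraries of different composition can be compared. The libraries held 989217 to 5266617 recovered reads, and 947081 to 1772185 without the abundant rows Rn45s, Lars2 and Mir6236. Wild type 1 had 59.1% of its reads on Rn45s, a ribosomal RNA precursor. The sources used here do not give the strand setting used in counting. Tsix, which lies opposite Xist, had 8.12 to 16.5 times the CPM of Xist in 6 of 6 libraries, although the labels name a stranded kit. The strand that was counted is thus unsettled, and the level of every gene named here may come partly or wholly from reads of the opposite strand. Among the 9 genes, Cdkn1a shares 273 exon bases with AC167363.2 and Ei24 shares 324 with Gm26787 on the opposite strand, while the other 7 share none. Changes below are log2 fold changes of KO over wild type after adding 0.5 CPM, so that those of low genes depend on this constant. For Ei24, Cdkn1c and Sesn3, with 0 reads in some wild-type library, they were larger than those of edgeR on the recovered reads. The values were 2.82 against 1.66 for Ei24, 3.03 against 2.498 for Cdkn1c and 1.61 against 0.84 for Sesn3. For the marker genes S100a8, S100a9, Bglap and Bglap2, a whole genotype had 0 reads. There the limma changes were smaller in size than those of edgeR, with −6.47 against −9.33 for S100a9 and 4.01 against 6.89 for Bglap. The limma fold changes carry the standard error (SE) of limma and a Benjamini-Hochberg adjusted p over all 10189 genes.

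All 9 genes had a positive log2 fold change, that is higher mean log levels in KO than in wild type, and none passed limma's adjusted threshold of 0.05. Their median log2 fold change was 0.56, against 0.02 over all genes, of which 51.4% were positive. At that threshold limma called 0 of the 9 and 0.00981% of all genes in either direction. edgeR and DESeq2 on the recovered reads also called 0 of the 9, and they called 0.0196% and 1.13% of the genes to which they gave an adjusted p. At an unadjusted limma p below 0.05, 4 of the 9 were higher (Trp53inp1, Ccng1, Mdm2 and Ei24), against 4.64% of all genes. By edgeR and DESeq2, 3 of the 9 (Trp53inp1, Ccng1 and Mdm2) were higher at an unadjusted p below 0.05, against 4.57% and 4.25% of all genes. The 4 became 2 (Ccng1 and Trp53inp1) when KO 1, KO 2, wild type 1 or wild type 2 was left out. In the same 4 genes every KO library lay above every wild-type library, against 8.82% of all genes. Because the 9 were chosen with earlier results of these data known, these counts and the median are no independent evidence of a shift.

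The arrest genes had fitted changes of different size, and differences between genes were not tested. Cdkn1a encodes p21, which binds and inhibits cyclin-dependent kinases and is the best known p53 target. It had 35.9, 24.0 and 21.4 CPM in KO 1, 2 and 3, against 25.1, 30.5 and 19.9 CPM in wild type 1, 2 and 3. The groups overlapped throughout, with KO 1 highest and wild type 3 lowest. The mean was 27.1 ± 7.71 CPM in KO and 25.2 ± 5.27 CPM in wild type (SD, n = 3 each), and limma's log2 fold change was 0.09 (SE 0.31, adjusted p = 0.926). The 95% interval of the log2 fold change ran from −0.61 to 0.79. The sign turned when KO 1 (−0.13) or wild type 3 (−0.07) was left out.

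Ccng1 encodes cyclin G1, which recruits a phosphatase to Mdm2 and is a well known p53-induced gene. It had 397, 309 and 258 CPM in KO 1, 2 and 3, against 204, 219 and 189 CPM in wild type 1, 2 and 3. Each KO library was above each wild-type library, and KO 1 was the highest. Limma estimated a log2 fold change of 0.63 (SE 0.20, adjusted p = 0.317). Leaving out any 1 library gave log2 fold changes of 0.47 to 0.78.

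Mdm2, the gene of the p53 ubiquitin ligase, had 85.9, 83.8 and 66.1 CPM in KO 1, 2 and 3, against 53.4, 48.0 and 57.5 CPM in wild type 1, 2 and 3. The lowest KO library exceeded the highest wild-type library. Its mean was 78.6 ± 10.9 CPM in KO and 52.95 ± 4.75 CPM in wild type (SD, n = 3 each), a log2 fold change of 0.56 by limma (SE 0.21, adjusted p = 0.376). With 1 library left out it ran from 0.49 to 0.68.

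Trp53inp1 encodes a nuclear protein that promotes p53 activity and autophagy. It had 81.7, 55.4 and 53.2 CPM in KO 1, 2 and 3, against 31.4, 41.9 and 28.1 CPM in wild type 1, 2 and 3. The groups did not overlap, and the difference from wild type was largest in KO 1. By limma the log2 fold change was 0.89 (SE 0.27, adjusted p = 0.298), and it was 0.69 when KO 1 was left out. Zmat3 encodes an RNA-binding zinc finger protein. It had 14.5, 5.88 and 11.0 CPM in KO 1, 2 and 3, against 5.65, 4.57 and 10.6 CPM in wild type 1, 2 and 3. These rest on 6 to 38 reads per library, with KO 2 close to wild type 1 and 2, and wild type 3 close to KO 3. For Zmat3 limma gave 0.56 (SE 0.58, adjusted p = 0.720).

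**Figure D2:**
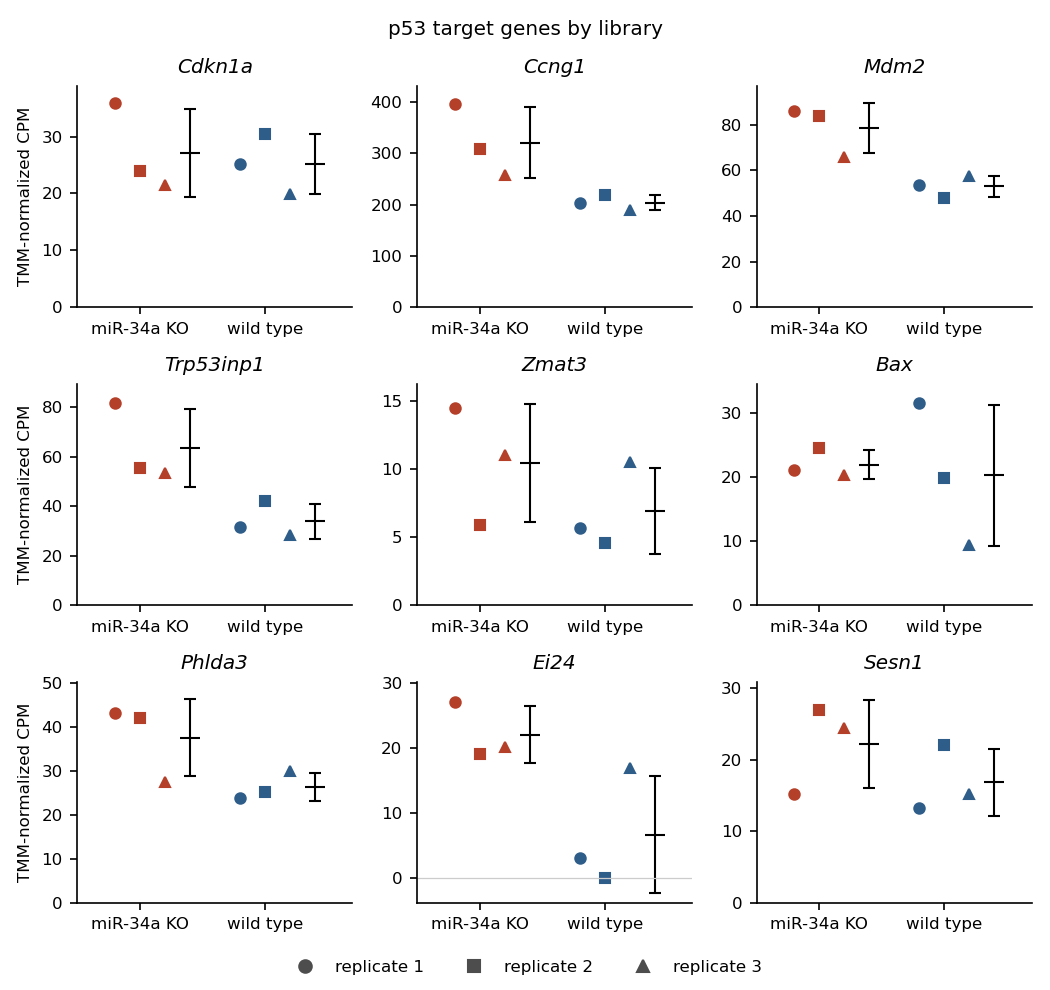
TMM-normalized CPM (vertical axes, starting at 0 except for Ei24) of the 9 genes in each library of miR-34a KO (red) and wild type (blue), with the mean ± SD of 3 libraries in black. Ccng1, Mdm2, Trp53inp1 and Ei24 have no overlap between genotypes, while Cdkn1a spans 21.4 to 35.9 CPM in KO and 19.9 to 30.5 CPM in wild type.

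The cell death genes gave mixed values. Bax encodes the pore-forming protein of mitochondrial apoptosis. It had 21.0, 24.5 and 20.2 CPM in KO 1, 2 and 3, against 31.4, 19.8 and 9.38 CPM in wild type 1, 2 and 3. The KO libraries lay close together inside the wild-type range. Limma gave a log2 fold change of 0.27 (SE 0.43, adjusted p = 0.833) with a 95% interval of −0.70 to 1.23, and it was −0.19 without wild type 3.

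Phlda3 encodes a small protein that competes with the kinase Akt for membrane lipids. It had 43.1, 42.1 and 27.5 CPM in KO 1, 2 and 3, against 23.9, 25.1 and 29.9 CPM in wild type 1, 2 and 3. KO 1 and KO 2 were above wild type and KO 3 was within it. Its change was 0.49 on the log2 scale (SE 0.28, limma adjusted p = 0.529). Sesn1 encodes sestrin 1, an inhibitor of mTORC1 signalling when amino acids are scarce. It had 15.3, 26.9 and 24.5 CPM in KO 1, 2 and 3, against 13.2, 22.1 and 15.2 CPM in wild type 1, 2 and 3. The genotypes overlapped, and KO 1, the highest library for 7 of the other genes, was the lowest KO library here. For Sesn1 the change was 0.38 on the log2 scale (SE 0.36, limma adjusted p = 0.685).

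Ei24, which encodes a membrane protein of the endoplasmic reticulum needed for autophagy, had the highest fitted change and the least certain one. It had 27.1, 19.1 and 20.2 CPM in KO 1, 2 and 3, against 3.14, 0 and 17.0 CPM in wild type 1, 2 and 3. In reads these were 71, 39 and 33 in KO, against 5, 0 and 29 in wild type. Wild type 3 lay close to KO, and the other wild-type libraries set the difference. The 0 reads of wild type 2 allow up to 2.29 CPM (3 reads, counting error only). Limma fitted a log2 fold change of 2.82 (SE 1.09, adjusted p = 0.397). It depended on the added constant, with 3.63 at 0.1 and 2.04 at 2, and edgeR on the reads gave 1.66. It was 1.49 without wild type 2 and 4.05 without wild type 3.

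**Figure D3:**
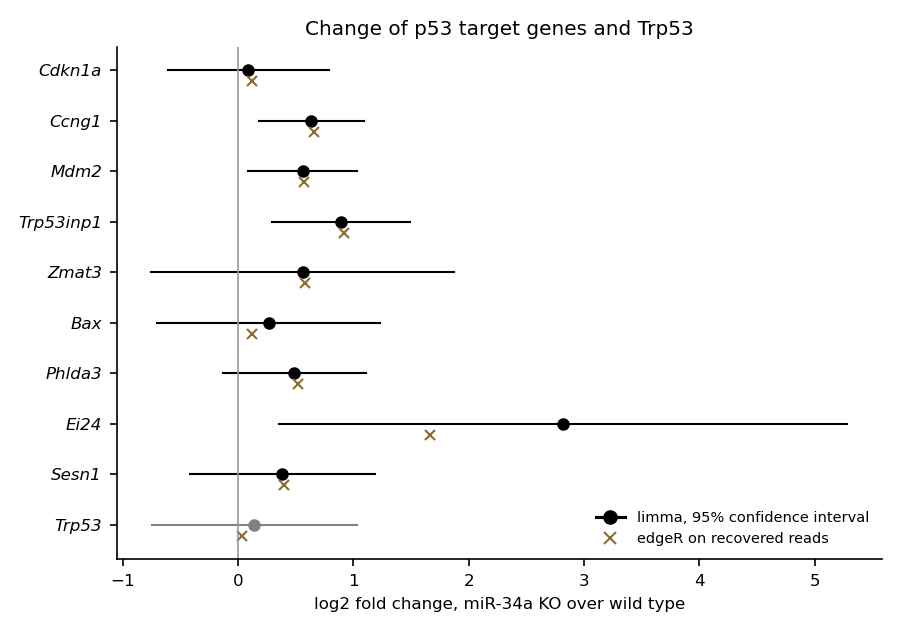
Log2 fold change of miR-34a KO over wild type for the 9 genes and Trp53 (horizontal axis), with limma estimates and 95% confidence intervals (lines) and edgeR estimates on the recovered reads (crosses). The unadjusted intervals of Ccng1, Mdm2, Trp53inp1 and Ei24 lie above 0, and those of Cdkn1a, Zmat3, Bax, Phlda3, Sesn1 and Trp53 include 0.

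Levels between genes were compared per kilobase of annotated exon. Ccng1 stood first in both genotypes, with 91.4 ± 19.9 CPM per kb in KO and 58.1 ± 4.28 CPM per kb in wild type (SD, n = 3 each). Phlda3 had 24.1 ± 5.60 CPM per kb in KO, where it came next, and 16.9 ± 2.04 CPM per kb in wild type, where its mean ± SD overlapped that of Bax. Mdm2 had 15.5 ± 2.14 CPM per kb in KO and 10.4 ± 0.934 CPM per kb in wild type, which did not differ beyond its spread from Bax, with 13.9 ± 1.45 CPM per kb in KO and 12.8 ± 6.99 CPM per kb in wild type. Trp53inp1, with 9.79 ± 2.45 CPM per kb in KO and 5.22 ± 1.11 CPM per kb in wild type, and Cdkn1a, with 7.63 ± 2.17 CPM per kb in KO and 7.09 ± 1.48 CPM per kb in wild type, stood in opposite order in the 2 genotypes, with overlapping mean ± SD in each. Sesn1, with 5.58 ± 1.55 CPM per kb in KO and 4.23 ± 1.17 CPM per kb in wild type, overlapped Cdkn1a in KO, Trp53inp1 in wild type and Ei24 in both genotypes. Ei24 had 4.55 ± 0.891 CPM per kb in KO and 1.38 ± 1.86 CPM per kb in wild type. Zmat3 had the lowest mean, with 0.915 ± 0.379 CPM per kb in KO and 0.606 ± 0.279 CPM per kb in wild type, but overlapped Ei24 in wild type.

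The levels of the genes were also compared across the 6 libraries, by the order of libraries and by the distance between profiles. Such a distance reflects the size of changes as well as their direction. KO 1 was the highest of the KO libraries for 7 of the 9 genes, and in wild type the highest library was number 1 for 1 gene, number 2 for 4 and number 3 for 4. The median centred log2 level of the 9 genes was 0.48, 0.30 and 0.04 in KO 1, 2 and 3, against −0.37, −0.21 and −0.30 in wild type 1, 2 and 3, so that KO 3 lay near 0. The mean was 0.57, 0.32 and 0.22 in KO 1, 2 and 3, against −0.34, −0.60 and −0.18 in wild type 1, 2 and 3. Ei24, at −4.07 in wild type 2 and 1.055 in wild type 3, weighs on these means, and wild type 2 is the lowest wild-type library by the mean and the highest by the median. With each gene centred on its own mean, Mdm2 and Phlda3 were the closest pair (root mean square difference of 0.12 in log2), followed by Mdm2 and Ccng1 (0.17) and Ccng1 and Trp53inp1 (0.18). Cdkn1a was 0.30 from Ccng1 and 0.38 from Mdm2. Of other genes with a mean of at least 20 CPM, the 5 with the profile closest to Cdkn1a were Lztfl1 (0.11), Ube3a (0.11), 9530068E07Rik (0.11), Mtap (0.11) and Micu2 (0.12), over the same 6 libraries. With 10189 genes and 6 libraries, distances of this size describe the libraries only.

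**Figure D4:**
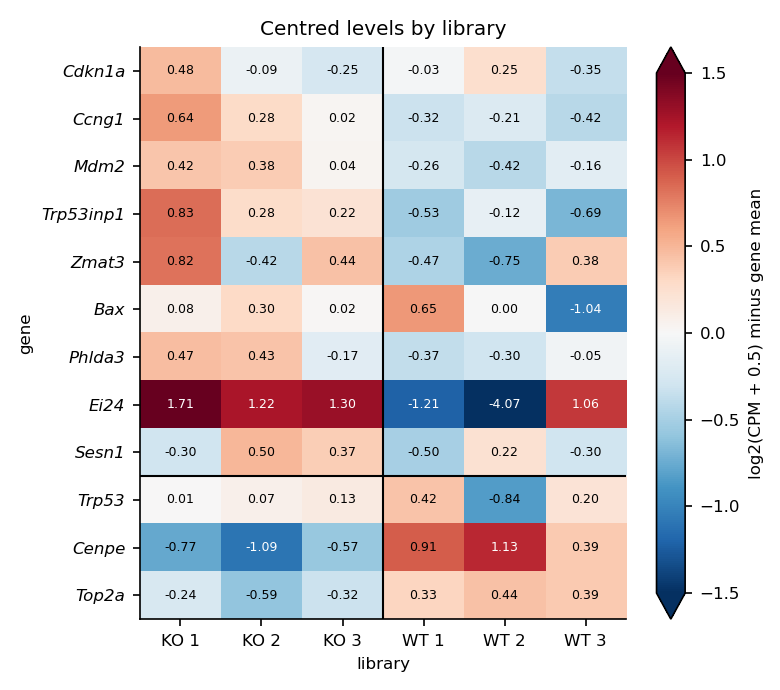
Level of each gene in each library as log2(CPM + 0.5) minus the mean of the gene, for the 9 genes (above the line) and for Trp53, Cenpe and Top2a. Ccng1, Mdm2, Trp53inp1, Ei24, Bax and Trp53 are positive in the 3 KO libraries. Of these, Bax is also positive in wild type 1, Ei24 in wild type 3 and Trp53 in wild type 1 and 3. Cdkn1a is positive in KO 1 and wild type 2, and Cenpe and Top2a are negative in the 3 KO libraries.

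The gene of p53 itself did not separate the genotypes. Trp53 had 16.8, 17.6 and 18.4 CPM in KO 1, 2 and 3, against 22.6, 9.14 and 19.3 CPM in wild type 1, 2 and 3. The change of Trp53 was 0.14 on the log2 scale (SE 0.40, limma adjusted p = 0.909), and it was −0.24 without wild type 2. Of 20 listed genes of p53 and its regulators, 15 had a row, 10 with positive and 5 with negative log2 fold changes and a median of 0.17. Limma, edgeR and DESeq2 each called 0 of the 15, and 0 had an unadjusted limma p below 0.05. The damage kinase gene Atm had 50.8, 15.7 and 26.3 CPM in KO 1, 2 and 3, against 8.17, 14.5 and 21.1 CPM in wild type 1, 2 and 3. KO 1 was the highest library for Atm, and the other KO libraries lay within or near the wild-type range. Trp53bp1, which encodes the p53-binding repair protein 53BP1, had 939, 197 and 155 CPM in KO 1, 2 and 3, against 70.4, 228 and 224 CPM in wild type 1, 2 and 3. KO 1 was the highest and wild type 1 the lowest of the 6 libraries for Trp53bp1. Its log2 fold change of 0.996 was 0.19 without KO 1 and 0.44 without wild type 1. It shares 2130 exon bases with a gene on the opposite strand.

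Other p53 targets had log2 fold changes of both signs, more of them positive. Of 35 listed, 26 had a row, 19 with positive and 7 with negative log2 fold changes, against 51.4% positive over all genes. Their median was 0.18, against 0.02 over all genes. This list, too, was chosen with earlier results of these data known. Limma, edgeR and DESeq2 each called 0 of the 26. At an unadjusted limma p below 0.05, 2 of the 26 were higher and 0 lower, against 4.64% and 6.4% of all genes. In 3 of the 26 every KO library lay above every wild-type library, against 8.82% of all genes, so these counts are not a result about the list. Ercc5, the gene of the repair endonuclease XPG, had 21.8, 25.5 and 19.6 CPM in KO 1, 2 and 3, against 13.8, 6.86 and 4.10 CPM in wild type 1, 2 and 3 (log2 fold change 1.53, SE 0.47, limma adjusted p = 0.305). Abhd4, which encodes a lipid hydrolase, had 29.8, 30.9 and 32.4 CPM in KO 1, 2 and 3, against 18.2, 20.6 and 11.7 CPM in wild type 1, 2 and 3 (log2 fold change 0.90, SE 0.31, limma adjusted p = 0.334). Both were separated by genotype, as was the death receptor gene Fas, by a smaller margin (log2 fold change 0.47, SE 0.41, limma adjusted p = 0.664).

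The remaining named targets overlapped between the genotypes. Tnfrsf10b, a TRAIL receptor gene, changed by 1.08 on the log2 scale (SE 0.57, limma adjusted p = 0.506), which did not pass. Those of the cell cycle genes Ckap2 and Btg2 were 0.27 (SE 0.29) and −0.56 (SE 0.58). The repair gene Ddb2 had −0.31 (SE 0.21), with 596 ± 149 CPM in KO and 728 ± 55.9 CPM in wild type (SD, n = 3 each). The glutaminase gene Gls2 had −0.95 (SE 0.52, limma adjusted p = 0.514). Ddb2 and Gls2 share 652 and 97 exon bases with opposite-strand genes.

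Paralogs of the 9 genes, which belong to the same protein families, were measured beside them. Of 11 listed, 8 had a row, 6 with positive and 2 with negative log2 fold changes, against 51.4% positive over all genes. Limma, edgeR and DESeq2 each called 0 of the 8, against 0.00981%, 0.0196% and 1.13% of all genes with an adjusted p. At an unadjusted limma p below 0.05, 0 were higher or lower, against 4.64% and 6.4% of all genes. Every KO library lay above wild type in 1 of the 8 (Cdkn1c) and below it in 1 (Trp53inp2), against 8.82% and 9.57% of all genes. Mdm4, the partner of Mdm2, had 46.9, 44.6 and 32.4 CPM in KO 1, 2 and 3, against 45.9, 48.0 and 48.7 CPM in wild type 1, 2 and 3 (log2 fold change −0.22, SE 0.23). KO 1 and KO 2 were close to wild type and KO 3 was below it. Trp53inp2 had 30.5, 28.9 and 37.3 CPM in KO 1, 2 and 3, against 47.7, 38.1 and 48.1 CPM in wild type 1, 2 and 3 (log2 fold change −0.46, SE 0.24, limma adjusted p = 0.50), so that every KO library lay below wild type. Trp53inp1 and Trp53inp2 had opposite signs, a difference that was not tested.

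The paralogs of p21 had positive log2 fold changes, 0.33 (SE 0.33) for Cdkn1b, which encodes p27, and 3.03 (SE 1.44, limma adjusted p = 0.478) for Cdkn1c, which encodes p57. Cdkn1c had 25, 24 and 8 reads in KO 1, 2 and 3, against 7, 0 and 0 reads in wild type 1, 2 and 3, and shares 625 exon bases with an opposite-strand gene. Sesn3 had 41, 9 and 23 reads in KO 1, 2 and 3, against 0, 7 and 23 reads in wild type 1, 2 and 3, and its log2 fold change was 1.61 (SE 1.20). Those of Sesn2, Ccng2 and Zmat2 were 0.19 (SE 0.97), 0.27 (SE 0.54) and 0.36 (SE 0.31), with genotypes that overlapped in each.

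Genes of the G1 phase and of the BCL2 family act with or beside p21 and Bax. Of 20 G1 cyclin, kinase and inhibitor genes, 16 had a row, 7 with positive and 9 with negative log2 fold changes and a median of −0.10. No gene of the 16 was called by limma, edgeR or DESeq2. By limma 1 of the 16 had a lower level at an unadjusted p below 0.05, which is close to the 6.4% of all genes. It was Rbl2, which encodes the pocket protein p130. Rbl2 had 85.5, 73.5 and 83.2 CPM in KO 1, 2 and 3, against 146, 133 and 131 CPM in wild type 1, 2 and 3 (log2 fold change −0.76, SE 0.18, limma adjusted p = 0.273), and shares 1585 exon bases with opposite-strand genes. For Rbl2 every KO library lay below every wild-type library. That held for 3 of the 16, Rbl2 included, against 9.57% of all genes. In 1 of the 16 every KO library lay above wild type, against 8.82% of all genes. Of 14 genes of the BCL2 family, to which Bax belongs, 8 had a row, with a median log2 fold change of 0.25, and limma, edgeR and DESeq2 each called 0. None of the 8 had an unadjusted limma p below 0.05. The survival gene Bcl2l2 had 0.74 (SE 0.42) and the death gene Bid −0.70 (SE 0.40), which shares 628 exon bases with an opposite-strand gene.

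Cell cycle genes that p21 is known to repress had negative log2 fold changes in 15 of 17 genes with a row (20 listed), against 48.6% of all genes. Their median was −0.72, against 0.02 over all genes. Limma and edgeR called 0 of the 17, and DESeq2 called 4 as lower (Mki67, Top2a, Ccna2 and Cenpe). Of all genes with an adjusted p, DESeq2 called 1.13% in either direction. At an unadjusted limma p below 0.05 there were 6 lower, against 6.4% of all genes. In 7 of the 17 every KO library lay below every wild-type library, against 9.57% of all genes. This list was also chosen with earlier results of these data known. Cenpe, a kinetochore motor gene, had 32.1, 25.5 and 36.7 CPM in KO 1, 2 and 3, against 104, 120 and 72.1 CPM in wild type 1, 2 and 3 (log2 fold change −1.62, SE 0.26, limma adjusted p = 0.150, DESeq2 adjusted p = 4.17e-04). Top2a, the topoisomerase gene of dividing cells, had 203, 159 and 192 CPM in KO 1, 2 and 3, against 302, 325 and 314 CPM in wild type 1, 2 and 3 (log2 fold change −0.77, SE 0.18, limma adjusted p = 0.273, DESeq2 adjusted p = 0.0279). In both genes all KO libraries lay below wild type. The mean centred log2 level of the 17 genes was −0.01, −0.93 and −0.01 in KO 1, 2 and 3, against 0.38, 0.27 and 0.30 in wild type 1, 2 and 3, so KO 2 was the lowest.

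miR-34a pairs with its targets through bases 2 to 8, shown in capitals in its RefSeq sequence because loss of this miRNA is the difference between the genotypes.
mmu-miR-34a-5p, chr4:150068473-150068494: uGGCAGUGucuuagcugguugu

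The matching 7-base site, CACTGCC, was looked for on the transcript strand in the longest annotated 3′ UTR of each gene. It was present in 3 of the 9 genes (Ei24, Bax and Sesn1), against 17.9% of 9343 genes. Ei24 had 2 matches. The shorter 6-base site, ACTGCC, which pairs with bases 2 to 7, was present in 6 of the 9 genes, against 35.4% of all 9343. Beside the 3 genes above these were Trp53inp1 and Ccng1, with 2 matches each, and Zmat3, with 1, while Cdkn1a, Mdm2 and Phlda3 had neither site. The 7-base sites are given with the match in capitals.
Ei24, base 91 of 948: aggcagaaccCACTGCCaagggccc
Ei24, base 750 of 948: tactgttggcCACTGCCaggtcaga
Bax, base 67 of 224: tgaggcctccCACTGCCttggactg
Sesn1, base 156 of 1066: tgtgggatctCACTGCCtgtctagc

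Across all genes the median log2 fold change was 0.04 with a match and 0.03 without, and 0.01 for the 296 genes with at least 2 matches. The log2 fold changes of the 3 genes with a match were 2.82 for Ei24, 0.27 for Bax and 0.38 for Sesn1, and those of the 6 without ran from 0.09 to 0.89.

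Markers of cell types were summed in each library. Limma called 0 markers in any of the 7 lists, and edgeR called S100a9, against 0.0196% of all genes. DESeq2 called 3 of 11 chondrocyte and 3 of 6 osteoblast markers as higher in KO. It called 1 of 14 macrophage, 2 of 3 neutrophil and 2 of 7 mural cell markers as lower in KO. Of all genes with an adjusted p, DESeq2 called 1.13% in either direction. The summed level of 11 chondrocyte markers was 6672, 3650.1 and 3861 CPM in KO 1, 2 and 3, against 3589, 2684 and 2315 CPM in wild type 1, 2 and 3, and 3 of the 14 listed had no row. Markers of the labelled cell type were thus present in every library, with KO 1 highest. Of the 11, 10 had positive log2 fold changes, with a median of 0.67. At an unadjusted limma p below 0.05, 6 were higher, against 4.64% of all genes. In 6 every KO library lay above every wild-type library, against 8.82% of all genes. The summed level of 7 mural cell markers was 138 to 307 CPM in KO and 434 to 532 CPM in wild type, and 6 of the 7 had negative log2 fold changes. The macrophage markers had negative log2 fold changes in 12 of 14, with a median of −0.69. Their sum overlapped, with 1045 to 15114 CPM in KO and 5236 to 6196 CPM in wild type, and KO 1 was lowest and KO 2 highest. Lyz2 alone made up 12165 CPM of the sum in KO 2. All 6 osteoblast markers with a row had positive log2 fold changes, and their sum was 2932 to 3914 CPM in KO and 655 to 1991 CPM in wild type. Most of that sum was Ibsp, with 2628 to 3620 CPM in KO and 526 to 1659 CPM in wild type, while the log2 fold changes of Alpl and Runx2 were 0.54 (SE 0.39) and 0.0058 (SE 0.28). Bglap and Bglap2, also osteoblast markers, had 0 reads in all wild-type libraries, against 8 to 31 and 13 to 32 reads in KO. Of 3 neutrophil markers with a row, S100a8 and S100a9 had 0 reads in all KO libraries, against 29 to 34 and 58 to 82 reads in wild type. The sums of the 2 endothelial markers with a row (0 to 43.6 CPM in KO and 11.3 to 34.0 CPM in wild type) and of the 1 erythroid marker (13.7 to 44.0 CPM in KO and 39.6 to 57.9 CPM in wild type) overlapped. The part of these marker levels in the levels of the 9 genes was not tested, and in bulk samples fewer cells of a type and less RNA per cell cannot be told apart.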

How the data were processed

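The deposited signal is 1 table of TMM-normalized CPM that the authors made from read counts and filtered by a rule that no source here gives. The submitters' processing notes name cutadapt 1.18, HISAT2 2.1.0, StringTie 1.3.5, edgeR and mm10, without roles. Per the labels, a stranded total RNA kit was used. All values (100%) were whole multiples of 1 step per library (within 0.001 reads), which let whole reads be recovered. The second highest value of any row was at least 7.35 CPM. 1 column name differed from its sample title by 1 character, and 0 columns were left unmapped.

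KO and wild-type samples (3 each) were compared over all 10189 genes by limma 3.58.1 in R 4.3.3 on log2(CPM + 0.5) values, using its intensity trend, two-sided tests and Benjamini-Hochberg adjusted p. The alternatives included edgeR 4.0.16 (quasi-likelihood) and DESeq2 1.42.0 on the recovered reads. The design had foreseen plain CPM, and the same test was kept. Procedures were tested on simulated data, with changes planted only in genes with a mean of at least 20 CPM. That test does not show how often real changes of the 9 genes would be missed. Positions and exons came from GENCODE M21 (mm10), which matched 9816 genes by symbol. No genome or table of protein sequences was used here. The 9 genes and all lists were chosen with earlier results of these data known. Named genes were the 9, Trp53, their paralogs, the 2 of smallest limma p in each other list and the 5 closest to Cdkn1a.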

Additional observations from a re-analysis of the deposited data

How the results depend on the processing

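The count of 0 called among the 9 genes, the 26 other targets and the 15 regulators held in all 17 alternatives, but the filter at a mean of 20 CPM left 6, 9 and 11 of them to test. Of 150 values of the 9 genes under these alternatives, 147 kept their direction, and the lowest adjusted p was 0.166 (Ccng1 with DESeq2). Of the 9 genes, that filter removed Ei24, Zmat3 and Sesn1. All 9 log2 fold changes were positive in every alternative except without KO 1 (8 of 9) and without wild type 3 (7 of 9). The number at an unadjusted p below 0.05 was 2 to 4. Ei24 was not among them with edgeR, with DESeq2, with limma without trend, with WT 1 and KO 2 both left out, or without KO 1, KO 2, KO 3, WT 1 or WT 2. Mdm2 was not among them without KO 1, KO 2, WT 1 or WT 2, or with WT 1 and KO 2 both left out.

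When 1 library was left out, Cdkn1a ran from −0.13 to 0.24, Bax from −0.19 to 0.66, Trp53 from −0.24 to 0.39, Btg2 from −1.05 to 0.014, Ccng2 from −0.33 to 0.69 and Sesn2 from −0.18 to 0.92. Sesn2 was −0.15 with quantile normalization, and Ccng2 was −0.50 with WT 1 and KO 2 both left out. The causes were not tested. Over all genes limma called 1 gene. The count was 2 with the pseudocount 2, 10 without trend, 4 with robust empirical Bayes, 2 with edgeR, 115 with DESeq2, 2 with WT 1 and KO 2 both left out, and 0 to 32 with 1 library left out. DESeq2 called 4 of the 17 cell cycle genes. Under the replicate block the count over all genes was 0, and 0 of the 9 were called. The samples share only a number: the correlations of their deviations were 0.059, 0.102 and −0.082 for numbers 1, 2 and 3. The depth of 6 to 38 reads limits Zmat3, and 0 to 71 reads limit Ei24. The stricter limit of 1 mismatch left the single Cdkn1a element.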
